A study of Arabidopsis thaliana with 6 samples.

Results

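Aliphatic glucosinolates are sulfur-rich defence compounds of Arabidopsis and its relatives that are built from methionine. The side chain of methionine is lengthened in a cycle of deamination, condensation with acetyl-CoA, isomerization and oxidative decarboxylation, and the elongated amino acid then enters core synthesis, where the glucosinolate head group is assembled. The chain is modified afterwards, and R2R3-MYB transcription factors, working with MYC partners, switch the genes on together.

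The genes described here are those of a list of 10 genes of methionine chain elongation, core synthesis and MYB regulation, selected by their annotation after the difference of IMS2 between eif3k and wild-type was already known. The genotype comparison is therefore given for these genes as a description, without a test. Of the 10 genes, 3 had a probe set that could be named, out of 14853 genes named on the array. BCAT4 (AT3G19710) and AT2G31790 were named by the platform annotation. The name of IMS2 (AT5G23020) came only from a supplement of the study that pairs probe sets with loci for genes called in its other mutants. The other 7 genes had no probe set with a name in these sources and are not analysed here. They are MAM1 (AT5G23010) of chain elongation, the cytochromes P450 CYP79F1 (AT1G16410), CYP79F2 (AT1G16400) and CYP83A1 (AT4G13770) of core synthesis, the side chain oxygenase FMO GS-OX1 (AT1G65860), and the regulators MYB28 (AT5G61420) and MYB29 (AT5G07690).

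Total RNA of 3 eif3k and 3 wild-type samples, all of the Columbia ecotype, was hybridised to ATH1 arrays. The eif3k plants are a single T-DNA line with the insertion in intron 6 of AT4G33250, which encodes eIF3k, a subunit of the initiation factor that prepares the small ribosomal subunit for translation. All seedlings were 11 days old, only their aerial part was taken, and the medium held 1% sucrose and 0.8% agar at 22 °C. The labels give days with 16 h of light and a harvest 4 h after light on, whereas the study's methods describe continuous light, and which of these applied is unclear. Replicates 1 and 2 of both genotypes share an array date and replicate 3 of both was run on a later one.

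The values are log2 signals, on which a difference of 1 is 2-fold, and they start at a floor of 2.25 that held between 25.5% and 26.8% of probe sets on each array. The EIF3K probe set averaged 6.98 ± 0.47 in eif3k and 8.96 ± 0.19 in wild-type (SD, n = 3 each). The large ribosomal RNA, read by a control probe set, gave 8.13 in eif3k replicate 3 and 12.04 to 12.87 on the other 5 arrays. RCA, the Rubisco activase gene of green tissue, averaged 14.98 in eif3k against 14.96 in wild-type arrays, and it was the 1 green shoot marker of 5 that could be named.

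IMS2 showed much higher signals in eif3k. This gene, also listed as MAM3 in RefSeq, encodes a methylthioalkylmalate synthase, the enzyme that condenses acetyl-CoA with the deaminated methionine derivative in each round of chain elongation. Its log2 signal was 8.03, 7.19 and 7.81 in eif3k replicates 1, 2 and 3, against 5.87, 5.66 and 6.07 in wild-type replicates 1, 2 and 3. The lowest eif3k array lay 1.12 above the highest wild-type array, so the genotypes did not overlap. In whole aerial parts, more cells that use a gene and more RNA per cell cannot be told apart. The means were 7.68 ± 0.44 in eif3k and 5.87 ± 0.21 in wild-type (SD, n = 3 each), a log2 difference of 1.81 with a standard error of 0.27, or 3.51-fold. In same-numbered pairs of arrays the difference was 2.16, 1.53 and 1.74, and the later date, pair 3, fell between the pairs of the first date. In RefSeq (TAIR10.1) the next locus before IMS2 is MAM1, a gene of the same enzyme family, and whether its transcript also binds this probe set was not tested. The IMS2 difference averaged 1.85 within the first date and ranged from 1.63 to 2.05 when any single array was left out.

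BCAT4 was modestly higher in eif3k on average and within each same-numbered pair. It encodes the aminotransferase that removes the amino group of methionine, the entry step of chain elongation. Its log2 signal was 10.15, 9.47 and 10.13 in eif3k replicates 1, 2 and 3, against 9.63, 9.08 and 9.64 in wild-type replicates 1, 2 and 3. The genotypes overlapped, because eif3k replicate 2 lay 0.17 below the highest wild-type array. The means were 9.92 ± 0.39 in eif3k and 9.45 ± 0.32 in wild-type (SD, n = 3 each), a log2 difference of 0.47 with a standard error of 0.28, or 1.38-fold. The pair differences of 0.52, 0.39 and 0.49 were close to each other although the arrays of a genotype spread more widely. Within the first date they depend on the replicate number: eif3k replicate 2 at 9.47 lay below wild-type replicate 1 at 9.63. BCAT4 itself deviated from the genotype mean by 0.23, -0.45 and 0.21 in eif3k replicates 1, 2 and 3. In wild-type replicates 1, 2 and 3 it deviated by 0.18, -0.37 and 0.19. Over all tested probe sets, however, deviations from the genotype means did not single out these pairs. They correlated at 0.247 and 0.378 for same-numbered first-date arrays, against 0.308 and 0.395 for unlike-numbered ones. Without wild-type replicate 2 the difference was 0.28, and with array weights it was 0.29.

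AT2G31790, which stands in the list among the core synthesis genes, was nearly level between the genotypes. Its log2 signal was 8.54, 8.30 and 8.10 in eif3k replicates 1, 2 and 3, against 8.30, 8.30 and 8.20 in wild-type replicates 1, 2 and 3. The eif3k arrays spanned the whole wild-type range and lay on both sides of it. The eif3k mean exceeded that of wild-type by 0.05 on average (standard error 0.13), the pair differences were 0.24, 0.00 and -0.10, and without eif3k replicate 1 the difference was -0.07.

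**Figure D1:**
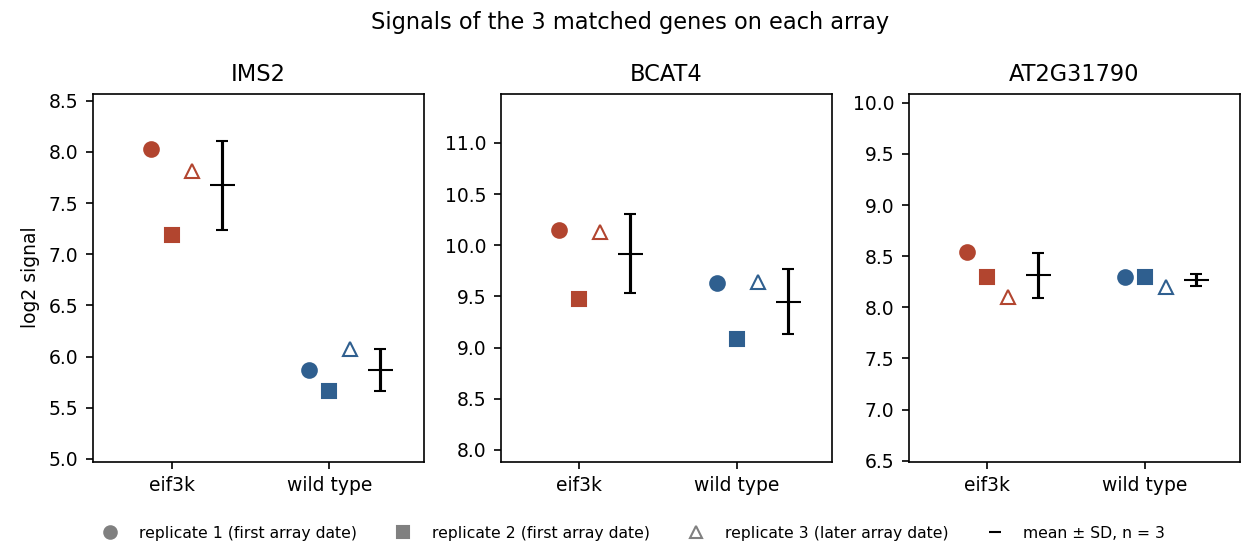
Log2 signal (vertical axis, the same span in each panel) of IMS2, BCAT4 and AT2G31790 on the 3 eif3k and the 3 wild-type arrays; each symbol is 1 array, open triangles are the later array date, and the bars give the mean and SD. For IMS2 the eif3k arrays lie at 7.19 or above and the wild-type arrays at 6.07 or below, whereas the genotypes overlap for BCAT4 and AT2G31790.

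Set against all 22746 probe sets, the difference of IMS2 was the 17th highest, that of BCAT4 was the 663rd and that of AT2G31790 was the 6213th. The median difference over the 3 genes was 0.47, against 0.00 over all probe sets. With limma over all probe sets 0 were called at an adjusted p under 0.05 and at least 2-fold (0%), so no gene named here was called. That includes EIF3K, the gene with the insertion, at a log2 difference of -1.98 (limma adjusted p = 0.864). The 0 therefore does not show that transcripts were unchanged. An unadjusted p under 0.05 was reached by 694 of 22746 probe sets, a count that is not read as changed transcripts. Among the 16269 probe sets above the floor on all 6 arrays, all eif3k arrays exceeded all wild-type arrays for 3.72%, IMS2 among them. The eif3k array was at least 2-fold higher in every same-numbered pair for 13 of them (0.0799%), and IMS2 was the 1 glucosinolate probe set of that kind. These positions describe genes chosen with this contrast in view and support nothing beyond it.

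**Figure D2:**
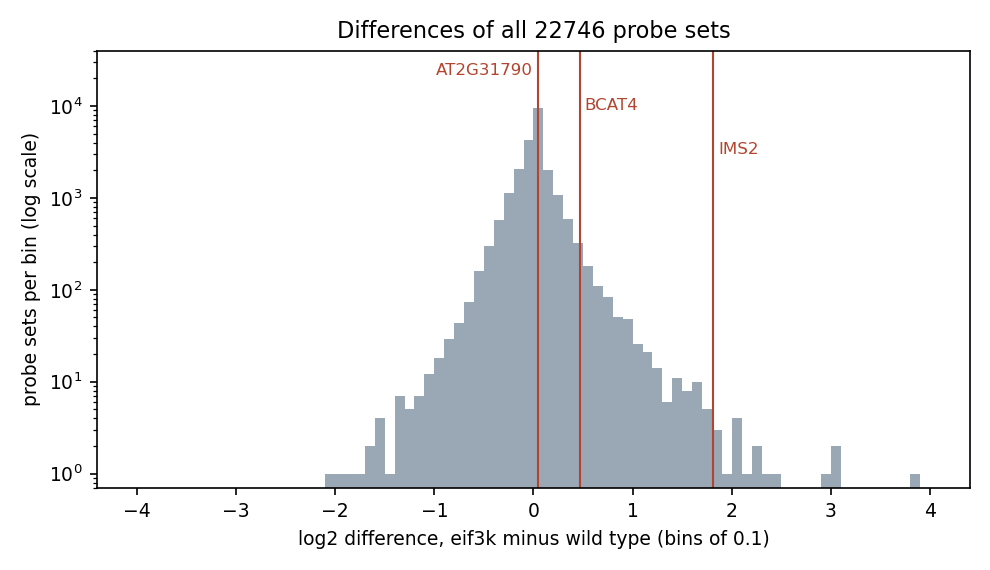
Number of probe sets (vertical axis, log scale) by log2 difference, eif3k minus wild-type, in bins of 0.1 over all 22746 probe sets; the vertical lines mark the 3 genes. IMS2 at 1.81 stands in the sparse right tail, BCAT4 at 0.47 on its shoulder and AT2G31790 at 0.05 in the central peak.

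The arrays of a genotype also differed among themselves in a like manner for IMS2 and BCAT4. Replicate 2 was the lowest array of its genotype for both genes: IMS2 deviated there from the genotype mean by -0.49 in eif3k and by -0.21 in wild-type, and BCAT4 by -0.45 in eif3k and by -0.37 in wild-type. On the other 4 arrays the deviations of BCAT4 lay between 0.18 and 0.23, and those of IMS2 between 0.00 and 0.35. AT2G31790 did not share this pattern, with deviations of -0.01 in eif3k replicate 2 and 0.03 in wild-type replicate 2. The deviations are few, and same-numbered arrays share whatever was common to their harvest or hybridisation, which was not tested.

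**Figure D3:**
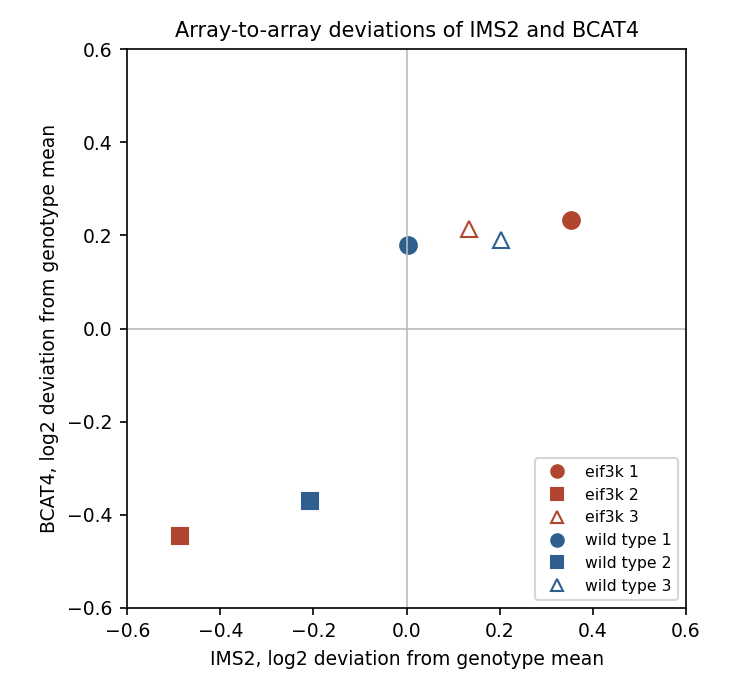
Deviation of each array from the mean of its genotype, on the log2 scale, for IMS2 (horizontal axis) and BCAT4 (vertical axis); each symbol is 1 of the 6 arrays. The replicate 2 arrays of both genotypes sit at the lower left, with BCAT4 at -0.45 in eif3k and -0.37 in wild-type, and the other 4 arrays sit near or above 0 for both genes.

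The array date was not used to choose the genes, so its contrast could be tested. With genotype in the model, IMS2 was 0.25 higher on the later date than on the first (standard error 0.29, limma adjusted p = 0.874), and BCAT4 was 0.30 higher (standard error 0.29, limma adjusted p = 0.791). AT2G31790 had a log2 difference of -0.21 (standard error 0.10, limma adjusted p = 0.496). None of the 3 passed, while 76 of 22746 probe sets did (0.334%). Within each genotype the later date differed from the first by 0.20 in eif3k and 0.31 in wild-type for IMS2, and by 0.32 in eif3k and 0.29 in wild-type for BCAT4. The genotype difference on the later date minus that on the first was -0.11 for IMS2 (standard error 0.69, limma adjusted p = 1), 0.04 for BCAT4 (standard error 0.70, limma adjusted p = 1) and -0.22 for AT2G31790 (standard error 0.19, limma adjusted p = 0.956). This interaction was called for 112 probe sets (0.492%), none of them named in these lists. The later date has a single array of each genotype, which is assumed to vary like the others.

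The rest of the pathway was only partly visible. Of 64 genes in all the glucosinolate lists, 18 could be named, on 17 probe sets, and no member of the lists of indolic synthesis and of leucine synthesis was among them. Over these 17 probe sets 9 were higher in eif3k in every same-numbered pair, against 11.3% of those above the floor on all arrays. The 9 include IMS2, whose difference was known before the genes were listed. All eif3k arrays exceeded all wild-type arrays for 3 of the 17, IMS2 among them, against 3.72% of those above the floor on all arrays. In pairs 1 and 2 alone, a count added after the data were seen that leaves out the array with the low rRNA control signal, 10 were higher in both, against 20.2%. Their median log2 difference was 0.25. Probe sets of a pathway are not independent of each other, and those named through the supplement were listed for having changed in other mutants. The lists were also chosen with earlier results of these data known, so these counts are a description only.

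Among the 22 further genes of aliphatic synthesis 7 were matched, on 6 probe sets. The median log2 difference was 0.32. In all pairs 4 of the 6 were higher in eif3k, against 11.3% of all probe sets above the floor on all arrays. GSTU20, a glutathione transferase assigned to the core pathway, had the largest difference. Its log2 signal was 11.91, 11.65 and 11.29 in eif3k replicates 1, 2 and 3, against 11.14, 11.11 and 11.05 in wild-type replicates 1, 2 and 3. All eif3k arrays exceeded all wild-type arrays, as for 3.72% of probe sets above the floor on all arrays. The pair differences of 0.77, 0.54 and 0.24 were unequal, around a mean of 0.52 (standard error 0.17). The remaining listed genes of this pathway are named after their values were seen. UGT74B1, which glucosylates thiohydroximates in aliphatic and indolic synthesis alike, had 9.08, 8.88 and 9.53 in eif3k replicates 1, 2 and 3, against 8.68, 8.48 and 9.13 in wild-type replicates 1, 2 and 3. The genotypes overlapped, yet each eif3k array exceeded its wild-type partner by 0.40. UGT74B1 also had the smallest adjusted p of these lists for the array date, with 0.55 more on the later date (standard error 0.09, limma adjusted p = 0.150).

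AT2G25450, listed as a side chain gene, had a log2 difference of 0.47 with a standard error of 0.22, and its pair differences of 0.07, 0.95 and 0.40 differed widely. The probe set shared by IMD3 and IMD1, isopropylmalate dehydrogenases, cannot separate these genes. It had a log2 difference of 0.25 with pair differences of 0.43, 0.35 and -0.04. FMO GS-OX2, an enzyme that oxidizes the side chain sulfur, had a log2 difference of 0.12 with a standard error of 0.10. AOP3, a side chain dioxygenase, lay near the floor with signals from 2.47 to 2.56 in eif3k, against 2.44 to 2.57 in wild-type, where a difference can hardly be seen.

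Breakdown and transport genes were matched for 4 of 9 genes, and their median log2 difference was 0.09. Of the 4, 1 was higher in eif3k in all pairs, against 11.3% of all probe sets above the floor on all arrays. ESM1, which favours isothiocyanates among the breakdown products, had the largest difference. Its log2 signal was 11.73, 11.09 and 11.79 in eif3k replicates 1, 2 and 3, against 11.17, 10.92 and 10.52 in wild-type replicates 1, 2 and 3. The genotypes overlapped by a narrow margin, with a mean difference of 0.67 (standard error 0.28), and the pairs gave 0.56, 0.17 and 1.27. Also named after their values were seen, ESP, the epithiospecifier protein gene that favours nitriles, had 0.11, and the transporter genes GTR1 and GTR2 had -0.07 and 0.08.

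In the list of MYC partners and sulfur supply 4 of 9 genes were matched, with a median log2 difference of 0.49. No gene was near this median, which lies between 2 sulfur genes, APR1 and SDI1, and 2 MYC genes with differences below 0. Of the 4, only APR1 and SDI1 were higher in eif3k in all pairs, against 11.3% of all probe sets above the floor on all arrays. APR1 encodes an APS reductase of sulfate assimilation. Its log2 signal was 8.81, 8.97 and 9.69 in eif3k replicates 1, 2 and 3, against 8.22, 8.30 and 7.94 in wild-type replicates 1, 2 and 3. All eif3k arrays exceeded all wild-type arrays, as for 3.72% of probe sets above the floor on all arrays. The means differed by 1.00 (standard error 0.28), or 2.00-fold, and the pairs by 0.59, 0.67 and 1.75. The first date alone gave 0.63, so APR1 reached 2-fold only with pair 3, which holds eif3k replicate 3, the array with the low rRNA control signal. SDI1, induced by sulfur shortage and known to restrain aliphatic glucosinolate synthesis, had 3.08, 3.39 and 5.60 in eif3k replicates 1, 2 and 3, against 2.82, 2.80 and 3.08 in wild-type replicates 1, 2 and 3. Its log2 difference of 1.12 came mostly from the same array, and the first date alone gave 0.43. The part of the low rRNA control signal in either difference was not tested. The standard error was 0.76. MYC3 and MYC4, partners of the MYB regulators that were likewise named after their values were seen, had log2 differences of -0.03 and -0.29, and the pair differences of MYC4 were -0.84, -0.05 and 0.01.

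**Figure D4:**
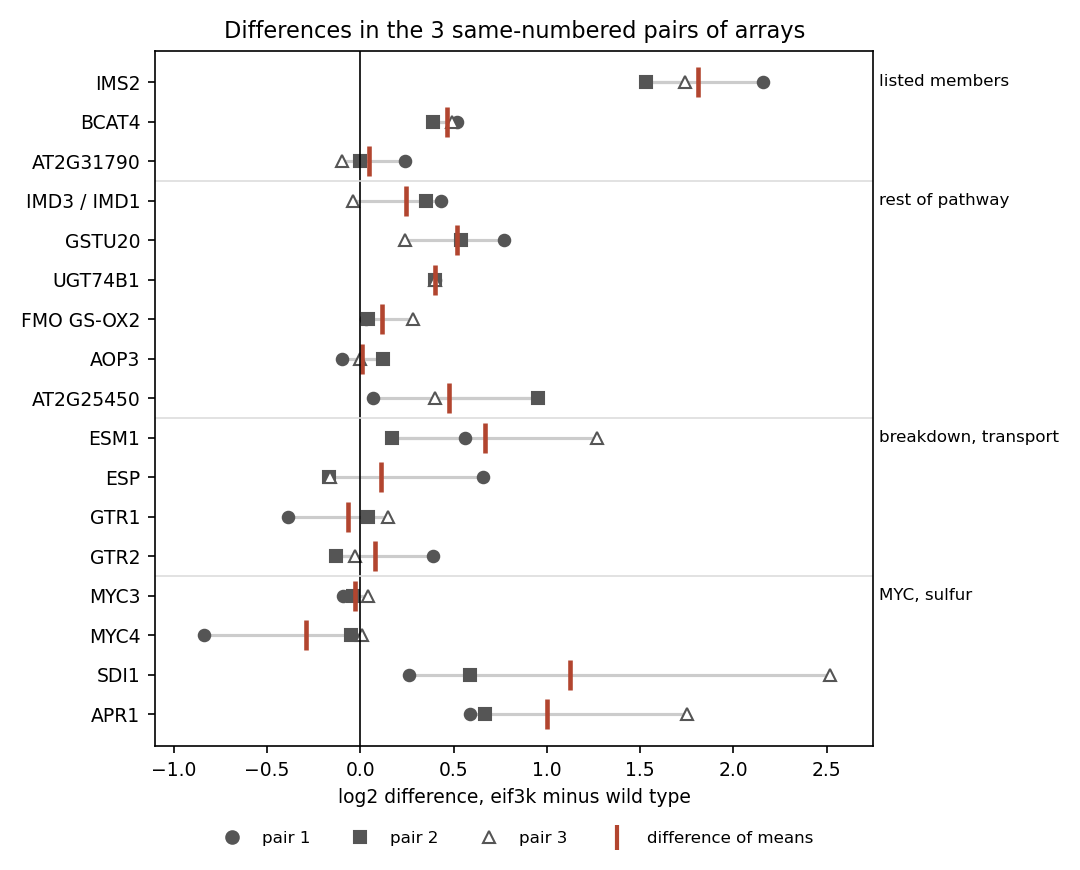
Log2 difference between eif3k and wild-type (horizontal axis) in each same-numbered pair of arrays for the 17 probe sets of the glucosinolate lists; circles, squares and open triangles are pairs 1, 2 and 3, and the red bar is the difference of the means. IMS2 lies from 1.53 to 2.16 in all pairs, while SDI1 and APR1 reach 2.52 and 1.75 in pair 3 only.

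Root tissue expresses its own glucosinolate-related genes, and 3 of 5 root markers could be named. Of these 3 probe sets 2 were higher in eif3k in all pairs, against 11.3% of all probe sets above the floor on all arrays. The third, EXPA7, is not above that floor on all arrays. The median log2 difference of the 3 root probe sets was 0.49, which is the value of PYK10 alone, and EXPA7 had -0.003. The median of 0.47 for the 3 glucosinolate genes is likewise that of BCAT4 alone, within a range of 0.05 to 1.81. The summed linear signal of these 3 probe sets was 1883 to 3136 in eif3k and 1361 to 2750 in wild-type, ranges that overlap. PYK10, a beta-glucosidase gene abundant in roots and seedlings, made up nearly all of it, with 10.87, 11.44 and 11.61 in eif3k replicates 1, 2 and 3, against 10.62, 10.40 and 11.42 in wild-type replicates 1, 2 and 3. EXPA7, a root hair gene, was at the floor of 2.25 on all 3 eif3k arrays and at no more than 2.26 in wild-type. The probe set shared by BGLU22 and BGLU21 had 2.73, 3.21 and 2.39 in eif3k replicates 1, 2 and 3. Wild-type replicates 1, 2 and 3 had 2.27, 2.27 and 2.29. These signals were close to the floor and without overlap, as for the 3.72% of probe sets with all eif3k arrays above all wild-type arrays. The part of the root markers in the differences of IMS2 and BCAT4 was not tested. FMA, a gene of guard cells and of the myrosin cells that store the breakdown enzyme, averaged 4.70 ± 0.94 in eif3k and 4.66 ± 0.50 in wild-type (SD, n = 3 each).

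Across the 6 arrays the patterns most like that of IMS2, among 1478 brighter probe sets of a single named gene with a range over 1, were those of QQS (Pearson r = 0.96), HMT3 (r = 0.95) and BGLU44 (r = 0.95). QQS, an orphan gene, had 7.77, 7.81 and 8.46 in eif3k replicates 1, 2 and 3, against 4.41, 3.60 and 4.58 in wild-type replicates 1, 2 and 3, a wider gap than that of IMS2. HMT3, a homocysteine S-methyltransferase gene, had 4.90, 4.10 and 5.30 in eif3k replicates 1, 2 and 3, against 3.45, 3.26 and 3.74 in wild-type replicates 1, 2 and 3. In both of these genes wild-type replicate 2 was the lowest array. Among the eif3k arrays replicate 2 was the lowest for HMT3 but not for QQS, where replicate 1 was. BGLU44 had 10.56, 10.29 and 10.72 in eif3k replicates 1, 2 and 3, against 9.89, 9.53 and 10.03 in wild-type replicates 1, 2 and 3. For BCAT4 the most alike were AT5G08535 (r = 0.98), SULTR4;2 (r = 0.94), a vacuolar sulfate transporter gene, and AT3G02640 (r = 0.92). SULTR4;2 had 4.64, 4.16 and 4.89 in eif3k replicates 1, 2 and 3, against 4.17, 3.88 and 4.12 in wild-type replicates 1, 2 and 3. AT5G08535 had 5.98, 5.26 and 5.73 in eif3k replicates 1, 2 and 3, against 5.35, 4.93 and 5.42 in wild-type replicates 1, 2 and 3. AT3G02640 had 7.54, 6.82 and 7.26 in eif3k replicates 1, 2 and 3, against 6.56, 6.35 and 6.81 in wild-type replicates 1, 2 and 3. These correlations describe 6 arrays that share genotype and date. Of the 1478 probe sets, 7 exceeded 0.9 for IMS2 and 5 for BCAT4.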

How the data were processed

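The deposited values are log2 signals of 22810 ATH1 probe sets on 6 arrays; per the labels the authors used GCRMA. Its version is not given, and the log base follows from that method. GCRMA subtracts a background by probe sequence and quantile-normalizes the arrays, so a broad shift of all transcripts would be removed. The study's own analysis used RMA. After 64 controls were left out, 22746 probe sets were tested; 13513 had 1 gene and 503 several genes in the platform annotation, and the supplement named 1 gene for 500 more and several for 45.

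Differences were fitted by lmFit and eBayes of limma 3.58.1 (R 4.3.3; 2-sided tests) with no block. P-values were adjusted over all probe sets by the Benjamini-Hochberg method, and calls were made at an adjusted p under 0.05 and at least 2-fold. The array date was fitted with genotype as a covariate. The prior had 0.388 degrees of freedom in the genotype fit. The script was tested on simulated data. Groups came from the labels, which name 3 biological replicates. Arrays of the same replicate number were treated as pairs in an alternative fit, since the number tracks the array date. Over all tested probe sets, deviations from the genotype means of same-numbered arrays correlated at 0.247, 0.378 and 0.542. Unlike-numbered arrays of the first date did so at 0.308 and 0.395. The number of arrays limits the precision.

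Named genes were all matched members, in each pathway list the gene of largest difference and any at least 2-fold, and the 3 probe sets of highest correlation with each member whose range exceeded 1. Other listed genes, UGT74B1 among them, were named after their values were seen. The members and lists were chosen with earlier results of these data known. Alternatives were blocks, the first date alone, other scaling, a dim filter (over 3 on at least 3 arrays), another prior, array weights, other fold criteria and leaving out each array. Promoter and protein sequences were not used here.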

Additional observations from a re-analysis of the deposited data

How the results depend on the processing

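The genotype comparison gave 0 calls with limma in every alternative: with the replicate block, with the array date as a block, on the first date alone, under other scaling, filters, priors and weights, with no fold criterion or a 1.5-fold criterion, and without any single array. In each alternative, the genotype differences of IMS2, BCAT4 and AT2G31790 moved from their main values by less than the larger SD of the gene's eif3k and wild-type replicates. With the replicate block they were 1.81, 0.47 and 0.05, which a balanced block cannot move. Only the standard errors could change, to 0.17, 0.036 and 0.09 from 0.27, 0.28 and 0.13. Pairing changed no call. The median over the 3 genes was 0.29 with array weights, and leaving out single arrays gave 0.28 (without wild-type replicate 2) to 0.69 (without eif3k replicate 2). For the array date the same median ranged from 0.08 to 0.44 without single arrays, and none of the 3 genes passed in any alternative. The number of probe sets called for the array date was 126 with median centring, 448 with the dim filter, 4 with a trended and robust prior, 29 with array weights, 129 without a genotype term and 156 without the fold criterion, and from 0 (without wild-type replicate 1) to 199 (without wild-type replicate 3) when single arrays were left out, with 1 without eif3k replicate 1 or 2 and 8 without wild-type replicate 2; the cause was not tested. The interaction count was 0 with the dim filter, which tests fewer probe sets, and 102 to 169 (without eif3k replicate 2) without single arrays of the first date, alternatives chosen after seeing the data.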
